A study of Mus musculus with 2 samples.

Results

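The regions described here are Brg1 islands that lie in the interior of long genes in mouse medulloblastoma. An island, a stretch of the genome enriched for ChIP-seq reads, was taken when its midpoint fell inside a RefSeq protein-coding gene of 100 kb or longer and over 1 kb from every end of a protein-coding or lncRNA gene. Where several genes held the midpoint, the longest was taken as the host. This gave 1407 of the 5727 islands in the deposited list (24.6%, Wilson 95% interval 23.5 to 25.7), in 756 host genes. A further 241 islands with their midpoint in a long gene were left out because it lay within 1 kb of a gene end. The limits of the rule cut through a continuum: the shortest host was the nonagouti gene at 100414 bp and the longest shorter gene with an interior island was Ube4b at 99746 bp, while the member nearest to a gene end lay 1001 bp away, in Epha3, and the nearest one outside the limit 999 bp away, in Clybl.

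The tumours arose spontaneously in mice carrying CAG-CreER and Rosa26-SmoM2. SmoM2 is an activated form of Smoothened, the signal transducer of the Hedgehog pathway, and these mice serve as a model of medulloblastoma driven by Hedgehog signalling. Crosslinked tumour cells were precipitated with the J1 antibody, which is labelled as recognising both Brg1 and its paralogue Brm, so that an island can hold either protein. There was 1 ChIP library and 1 input library of the same genotype. The input is not analysed here, and the number of animals is not given in the sources used here. With 1 library there is no error between animals and no test between conditions, so values are set side by side with intervals for counting error only. These intervals treat islands as independent, which neighbouring islands of 1 gene may not be.

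Brg1, encoded by Smarca4, and Brm, encoded by Smarca2, are the alternative ATPases of BAF (SWI/SNF) complexes, which use ATP to move or eject nucleosomes. BAF complexes act at promoters and at distal enhancers, and the introns of long genes are a common place for enhancers. Long genes are frequent among those that build neurons: cell adhesion molecules, ion channels, guidance receptors and several families of transcription factors have introns of great length. Long genes also often have more than 1 promoter, so that an island inside a gene may lie on an alternative transcription start.

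No genome sequence was used here, so the sequence of the islands themselves is not shown. Where a member lay on a transcription start of its host that RefSeq lists over 1 kb inside the gene, the RefSeq promoter table (GRCm38.p6, which is mm10) gives the bases from 250 before to 50 after that start. The sequences below are shown because they are the part of the members whose letters can be read and differ in base composition. Capitals mark GC boxes, GGGCGG or its complement CCGCCC, the site bound by Sp1-type factors. The first 3 starts lie deep inside their hosts, the fourth, of Pde1a, is deep inside and poor in CpG, and the fifth, of Zfp536, lies close to the end of the annotated gene.
Stag1, chr9:100643198-100643497, plus strand: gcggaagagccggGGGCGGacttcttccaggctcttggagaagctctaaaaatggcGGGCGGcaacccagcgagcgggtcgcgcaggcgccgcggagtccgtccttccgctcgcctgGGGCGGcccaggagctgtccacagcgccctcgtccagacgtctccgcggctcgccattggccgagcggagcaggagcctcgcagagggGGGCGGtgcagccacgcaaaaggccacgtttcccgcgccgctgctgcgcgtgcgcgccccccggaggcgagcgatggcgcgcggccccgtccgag
Gse1, chr8:120488616-120488915, plus strand: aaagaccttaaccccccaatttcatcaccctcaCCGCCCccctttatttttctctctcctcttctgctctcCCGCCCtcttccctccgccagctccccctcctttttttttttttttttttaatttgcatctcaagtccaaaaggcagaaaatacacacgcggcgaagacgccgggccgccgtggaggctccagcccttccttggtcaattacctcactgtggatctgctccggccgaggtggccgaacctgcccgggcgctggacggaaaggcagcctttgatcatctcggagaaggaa
Lingo1, chr9:56635599-56635898, minus strand: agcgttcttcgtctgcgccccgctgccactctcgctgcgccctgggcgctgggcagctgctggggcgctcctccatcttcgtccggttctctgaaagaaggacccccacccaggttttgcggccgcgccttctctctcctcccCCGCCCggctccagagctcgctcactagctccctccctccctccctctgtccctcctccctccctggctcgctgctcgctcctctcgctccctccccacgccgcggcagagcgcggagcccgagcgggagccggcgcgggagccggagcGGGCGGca
Pde1a, chr2:80128922-80129221, minus strand: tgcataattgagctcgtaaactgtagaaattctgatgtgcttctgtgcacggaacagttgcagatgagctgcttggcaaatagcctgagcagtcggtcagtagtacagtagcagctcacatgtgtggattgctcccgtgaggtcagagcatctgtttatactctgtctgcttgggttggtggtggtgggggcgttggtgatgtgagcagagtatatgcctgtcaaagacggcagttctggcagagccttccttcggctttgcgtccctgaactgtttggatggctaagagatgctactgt
Zfp536, chr7:37769703-37770002, minus strand: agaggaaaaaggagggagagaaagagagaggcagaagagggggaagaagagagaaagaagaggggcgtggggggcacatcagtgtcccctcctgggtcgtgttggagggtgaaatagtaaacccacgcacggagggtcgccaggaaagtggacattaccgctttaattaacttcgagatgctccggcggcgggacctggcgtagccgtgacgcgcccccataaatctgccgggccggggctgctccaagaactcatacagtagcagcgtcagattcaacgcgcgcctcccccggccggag

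These 5 windows differ in composition. The Stag1 start, 45.7 kb inside the gene of this cohesin subunit and the only one listed for it, held 43 CpG, a GC content of 73.7% and 4 GC boxes, under an island of 127 reads. The start in Lingo1, a Nogo receptor partner, lay 161 kb inside the gene with 32 CpG, 72.7% GC and 2 GC boxes, under an island of 108 reads. The Gse1 start, 260 kb inside, held 17 CpG, 55% GC and 2 GC boxes under 116 reads. The start in Pde1a, a cyclic nucleotide phosphodiesterase gene, held 8 CpG, 50.3% GC and no GC box under 112 reads. The letters TATAAA were matched there only on the opposite strand, as TTTATA in the printed window. The Zfp536 start, 4.29 kb from the 5′ end of the annotated gene, was likewise the only one listed for this zinc-finger gene, with 22 CpG and no GC box under 164 reads.

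Islands were somewhat less dense in the interior of long genes than in that of shorter genes, and least dense in the longest. Counted against the sequence that could hold a member (the gene spans without 1 kb around gene ends, 599.9 Mb), the rate was 2.35 islands per Mb (exact Poisson 95% interval 2.22 to 2.47). The interior of shorter genes held 2.78 per Mb (2.61 to 2.95; 1039 islands) and sequence over 10 kb from any protein-coding gene 1.06 (1.00 to 1.11; 1409 islands). The 1 kb around lncRNA gene ends was left out of both interiors but kept in the sequence far from genes. Assembly gaps were not taken out, so the rate far from genes is not on quite the same footing. Of the islands inside shorter genes, 271 (26.1%) lay on a transcription start that RefSeq lists for the host, against 118 members (8.39%). These shares are of all islands, and a start was listed for the hosts of 1065 of the 1407 members. The rates of long and shorter genes were not compared without islands on a listed start, so the difference may not hold away from starts. Hosts of 100 to 200 kb held 2.85 per Mb (2.61 to 3.10), close to the 2.68 of genes of 50 to 100 kb (2.44 to 2.94). The rate was 2.70 (2.46 to 2.96) in hosts of 200 to 400 kb and 2.38 (2.12 to 2.66) in those of 400 to 800 kb. Genes of 800 kb or longer held 0.916 per Mb (0.747 to 1.11), an interval that overlaps that of sequence far from genes and lies below those of the shorter length classes. They made up 18.6% of the long-gene interior and held 7.25% of the members.

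**Figure D1:**
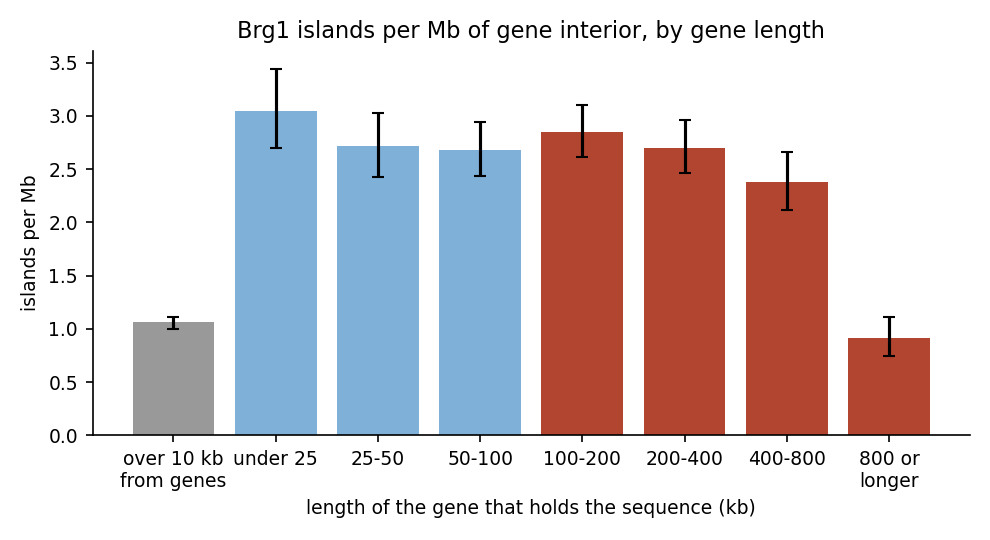
Bars give islands per Mb of gene interior by length of the gene (kb), with sequence over 10 kb from genes in grey, genes under 100 kb in blue and long genes in red; error bars are exact Poisson 95% intervals on 1 library. The rate stays between 2.38 and 3.05 in genes up to 800 kb and is 0.916 in longer genes, next to 1.06 away from genes. Ends of lncRNA genes were left out of the gene interiors but not of the sequence in grey.

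The share of genes with at least 1 island was nevertheless higher in the longer classes. Of the 2427 long genes, 756 (31.1%) had at least 1 member and 154 (6.35%) had 3 or more. The share with at least 1 was 24.0% of the 1437 genes of 100 to 200 kb, 36.8% of 638, 49.2% of 254 and 52.0% of the 98 genes of 800 kb or longer. Hosts had a median length of 216 kb, against 157 kb in long genes without a member. Most hosts had few islands: 433 had 1 and 169 had 2. The hosts with 3 or more held 636 members (45.2%), and 35 genes had 5 or more.

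Gse1 had the most interior islands and also the most per length. Gse1, a coiled-coil protein found with CoREST-type deacetylase and demethylase complexes, spans 353 kb and held 21 islands, or 5.95 per 100 kb (exact Poisson 95% interval 3.68 to 9.10). Their reads ran from 38 to 189 with a median of 78, and together the islands covered 15.6% of the gene. They were spread over 311 kb, with 16 of the gaps between neighbouring members at 20 kb or less. The strongest, of 189 reads, lay 62.5 kb from the 5′ end, and a group of 7 islands occupied the stretch between 41.7 and 95.1 kb. The 38-read and 40-read islands of Gse1 were narrow, at 800 and 1000 bp, while the 189-read island was 6200 bp wide.

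Nfia followed with 16 islands in 541 kb (2.96 per 100 kb, 1.69 to 4.80). Nfia is a nuclear factor I transcription factor of granule neuron progenitors and glia. Its islands had 49 to 211 reads with a median of 81.5, and fell into groups: 6 lay between 23.8 and 83.8 kb from the 5′ end, 4 between 175 and 215 kb, and the strongest, of 211 reads, at 348 kb. None lay on a listed start of Nfia. The first group was thus separated from the second by a stretch without members, and 10 of the gaps between members were 20 kb or less.

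Lrba, which encodes a BEACH-domain protein of vesicle traffic, held 14 islands in 559 kb (2.50 per 100 kb, 1.37 to 4.20) with 56 to 154 reads. Of these, 5 lay within 25.3 kb of an end of Mab21l2, a gene inside Lrba, and 4 formed a group near the 3′ end of Lrba, 26.6 to 46.8 kb from Dclk2. In the related gene Nbea, the island with the most reads of all members (354 over 11600 bp) overlapped Mab21l1, which lies inside Nbea. The other 4 islands of Nbea had 57, 67, 72 and 117 reads. In both hosts, islands thus lay close to a small gene inside the host.

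The E protein gene Tcf4, which encodes a bHLH dimer partner, held 10 islands in 345 kb (2.90 per 100 kb). They ran from 58 to 181 reads with a median of 102, the highest median among the 12 hosts with the most islands. Of the 10, 5 lay between 220 and 260 kb from the lower-coordinate end, with 89, 162, 148, 181 and 58 reads. The strand of Tcf4 was not taken here, so its ends are named by coordinate. Zbtb20, a BTB zinc-finger repressor, held 9 islands of 48 to 122 reads in 759 kb. The 7 of these that lay between 575 and 665 kb from the 5′ end formed a group, 368 kb beyond the other 2.

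Cacna2d1, an auxiliary subunit of voltage-gated calcium channels, held 8 islands in 440 kb. The one with the most reads, 195, reached the 5′ end of the gene, and the other 7 had 133, 110, 98, 77, 68, 61 and 54 reads. Among all 8, a single gap between neighbouring members was 20 kb or less. Islands that are not members are left out of such gaps. Non-member islands lay 0.801 kb from the 133-read island and 17.8 kb from the 110-read island. Clybl, a gene of mitochondrial metabolism, held 7 islands in 231 kb, among them islands of 328, 174 and 165 reads. The 328-read island of Clybl was 11000 bp wide and lay 18 kb from the 3′ end of the gene and 74.9 kb from Zic5. Ralgapa2, a GTPase-activating protein subunit for Ral, held 7 of 67 to 186 reads.

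Maml3, a Mastermind coactivator of Notch, held 7 islands of 51 to 101 reads spread over 96.4% of its 418 kb. D430041D05Rik and the readthrough gene Iqschfp held 6 each. For all 6 islands of Iqschfp the nearest other gene was Schip1, with an end 6.88 to 242 kb from the midpoint. Since the longest gene was taken as host, islands that also lie inside Schip1 are counted for Iqschfp. By islands per length, hosts with 3 or more that stood high beside Gse1 were Fam53b (3.93 per 100 kb), Mgll (3.85), Zfp608 (3.83), Septin9 (3.07), Clybl (3.03), Zeb2 (2.99) and Nfia. Several of these rest on 4 or 5 islands: for Fam53b the interval ran from 1.07 to 10.1, so their order is not settled.

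**Figure D2:**
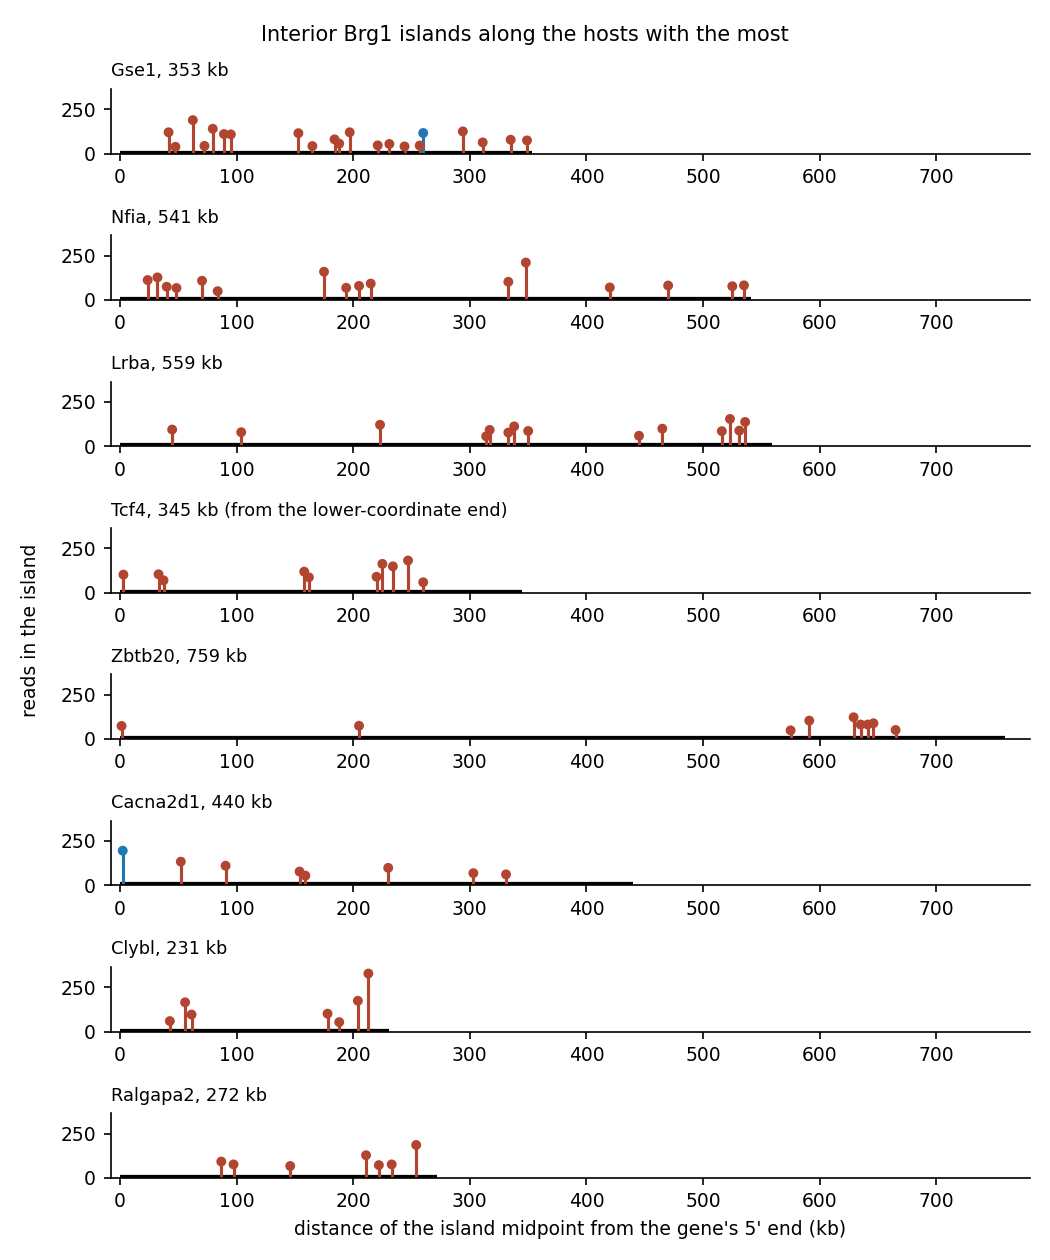
Each panel is 1 of the 8 hosts with the most interior islands (ties by total reads); the black bar is the gene, the horizontal axis the distance of the island midpoint from the 5′ end (kb; from the lower-coordinate end for Tcf4), and stem height the reads in the island. Blue stems lie on a listed start of the host, and no start was listed for Tcf4. Groups of islands are seen in Nfia between 23.8 and 83.8 kb and in Zbtb20 between 575 and 665 kb.

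The longest genes of the genome held few islands. The 10 longest protein-coding genes together held 14 in 19.9 Mb of interior, a rate of 0.705 per Mb (exact Poisson 95% interval 0.385 to 1.18). Dmd (dystrophin, on chromosome X), Cntnap2, a neurexin-family adhesion gene, and Macrod2 had none. For these genes, 3 islands would be 0.126, 0.134 and 0.150 per 100 kb. Ptprd, a receptor tyrosine phosphatase that organises synapses, had 4, of 51, 53, 58 and 94 reads in 2271 kb. Lsamp, Dlg2, Nrxn3 and Fhit had 2 each, and Lrp1b and Csmd1 1 each, of 109 and 65 reads. An absent island says only that no region passed the caller.

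**Figure D3:**
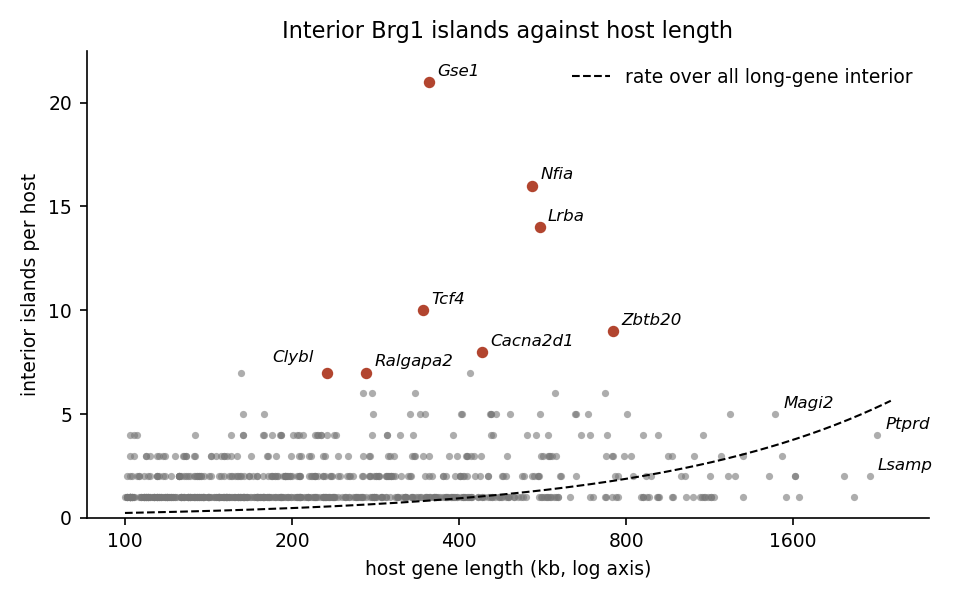
Each point is a host gene with its length (kb, log axis) and its number of interior islands; the dashed line is the number that the rate over all long-gene interior, 2.35 per Mb, gives at that length. The 8 hosts with the most islands (ties by total reads) are in red, far above the line, and the longest hosts, such as Ptprd with 4 and Lsamp with 2, lie below it.

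Gene lists were described by the share of their long genes with at least 1 member, beside the 31.1% of all long genes. Since the share differs between length classes, the number that the 4 length classes give for the lengths of each list is printed as well. These classes do not separate chromosome X, where 4 of 114 long genes had a member (3.51%), against 752 of 2313 autosomal ones (32.5%). Of the genes on any list, 47 stood on more than 1. Some listed genes are of another kind than their list and were kept in its counts. The ubiquitin ligase gene Znrf3 stood among transcription factors and the scaffold gene Gphn among transmitter receptors. The ubiquitin ligase gene Cblb stood among adhesion genes, and the RNA-binding protein genes Igf2bp2 and Igf2bp3 among growth factor pathway genes. The lists were chosen with earlier results of these data known. A difference from the number given by the lengths is therefore a description of the list and not a test.

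Transcription factor genes had interior islands more often than their lengths give. Of 88 long genes on the list, 52 (59.1%, Wilson 95% interval 48.6 to 68.8) had a member, where the lengths give 30.5. Of the 88, 22 had 3 or more (25%, against 6.35% of all long genes), among them the ubiquitin ligase gene Znrf3 with 3. The rate was 5.68 per Mb (4.80 to 6.67), and 5.17 without Nfia. The median was 1 island per gene, against 0 over all long genes. Beside Nfia, Tcf4 and Zbtb20, 5 islands each lay in Zfp536 (72 to 164 reads), in Bach2 (48 to 112), a BTB-bZIP repressor, in Camta1 (52 to 74) and in Zfhx3 (48 to 77). Among the members with the most reads were also those of the homeobox gene Pbx3, with 201 reads, and of the COE factor Ebf3, with 211.

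Genes of chromatin regulators had a member in 23 of 52 (44.2%, 31.6 to 57.7), where the lengths give 15. Their rate was 6.19 per Mb (4.81 to 7.83). It was 4.44 without Gse1, which alone held 21 of the 69 islands. Chd7, a chromodomain remodeller, held 5 islands of 66 to 181 reads, and Rere, a nuclear receptor coregulator, 5 of 48 to 126. Jarid2, a Polycomb partner, held 4, of 117, 117, 65 and 44 reads. With islands over 5 kb from gene ends the count for this list was 16 of 52 (30.8%), against 27.3% of all long genes.

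Cerebellar granule lineage genes had a member in 20 of 28 (71.4%, 52.9 to 84.7), where the lengths give 11.2. With islands over 5 kb from gene ends it was 16 of 28 (57.1%), next to 62.5% of cytoskeleton and 58% of transcription factor genes. The rate of 4.20 per Mb fell to 3.01 without Nfia. Beside Nfia and Chd7, islands lay in Reln, the secreted guide of neuronal migration, with 4 islands (51 to 103 reads), and Tead1, a Hippo pathway factor, with 3 (64, 72 and 98). Gli2, the Hedgehog transcription factor, had 2, of 93 and 73 reads, and its relative Gli3, from the transcription factor list, had none. The 8 without a member were Astn1, Etv6, Grin2b, Kcnd2, Meis1, Meis2, Unc5c and Dner, of which Meis1 and Dner had an island at a gene end.

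Among morphogen and growth factor pathway genes 16 of 37 (43.2%, 28.7 to 59.1) had a member, where the lengths give 12.5, at 2.59 islands per Mb. Maml3 led with 7, followed by Ppp2r2b, a phosphatase subunit (77, 62 and 52 reads), and the kinase gene Prkca (64, 50 and 49). Notch2, a Notch receptor gene, had 2, of 53 and 47 reads. Ror2, a Wnt5a receptor, had 1 of 154. Disp1, which releases Hedgehog ligand, and Hhat, which acylates it, were among the 21 without a member. So were Gsk3b and Lrp6 of the Wnt pathway, and the BMP receptors Bmpr1b and Bmpr2. Of these named genes without a member, Lrp6 alone had an island at a gene end.

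The genes of neuronal surface and signalling proteins differed by class. Axon guidance genes had a member in 20 of 36 (55.6%, 39.6 to 70.5; lengths give 12.9) at 2.56 per Mb. With islands over 5 kb from gene ends it was 15 of 36 (41.7%), against 27.3% of all long genes. The semaphorin Sema3e and the netrin Ntn1 held 4 each, Slit1, Sema6d and Srgap2 3 each, and Ephb2 a single island of 198 reads. Adhesion genes and synapse organisers had one in 32 of 63 (50.8%, 38.8 to 62.7; lengths give 28.3), but at 1.38 per Mb (1.07 to 1.75), in genes of a median of 740 kb. Dscaml1 and Tenm2 held 5 each, and Ncam1, Tenm4, Cdh4 and Ptprd 4 each. Ion channel genes had one in 16 of 44 (36.4%, 23.8 to 51.1; lengths give 16.6), with 8 of their 29 islands in Cacna2d1.

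Transmitter receptor genes had the fewest among the neuronal lists. A member lay in 7 of 34 (20.6%, 10.3 to 36.8), where the lengths give 12.9, and none had 3 or more. Their rate was 0.675 per Mb (0.308 to 1.28). The glutamate receptor gene Grik4 held 2, of 76 and 49 reads, and Grik2 held 1 of 110. Gabrb1 held the single island among the GABA-A receptor genes of the list, with 50 reads. Counting only islands with no fewer reads than the median of the whole list (68), 2 of the 34 had a member (5.88%), against 19.2% of all long genes.

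Cytoskeleton, scaffold and vesicle genes had a member in 47 of 72 (65.3%, 53.8 to 75.2; lengths give 28.2) at 3.15 per Mb (2.55 to 3.85). Nav2, Magi2 and the ankyrin gene Ank3 held 5 each, and 4 lay in each of Myo10, Anks1b, Ank2, Syne1, the doublecortin-like kinase gene Dclk1 and the kinesin gene Kif5c. Dclk1 had an island of 174 reads. Very large genes, many at common fragile sites, had one in 17 of 35 (48.6%, 33.0 to 64.4; lengths give 18). Their rate was 1.16 per Mb, and 0.847 without Lrba.

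Markers of other cells that a tumour can hold gave small counts. A member lay in 6 of 9 long oligodendrocyte genes (66.7%, 35.4 to 87.9; lengths give 2.80), among them St18, Pex5l, Pde4b and Tmeff2 with 2 each, but in 2 of 9 (22.2%) when islands under 68 reads were left out, against 19.2% of all long genes. It lay in 4 of 14 astrocyte and Bergmann glia genes (28.6%; lengths give 5.32; Msi2, Slc1a2, Npas3 and Slc6a11), in 4 of 15 microglia genes (26.7%; lengths give 5.12; Arhgap15 with 5 islands) and in 6 of 13 endothelial and mural genes (46.2%; lengths give 4.04), led by Ebf1 with 4. Liver and muscle genes had one in 2 of 12 (16.7%; lengths give 3.83), Cyp7b1 and Ttn. The share of the library that came from such cells was not tested.

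**Figure D4:**
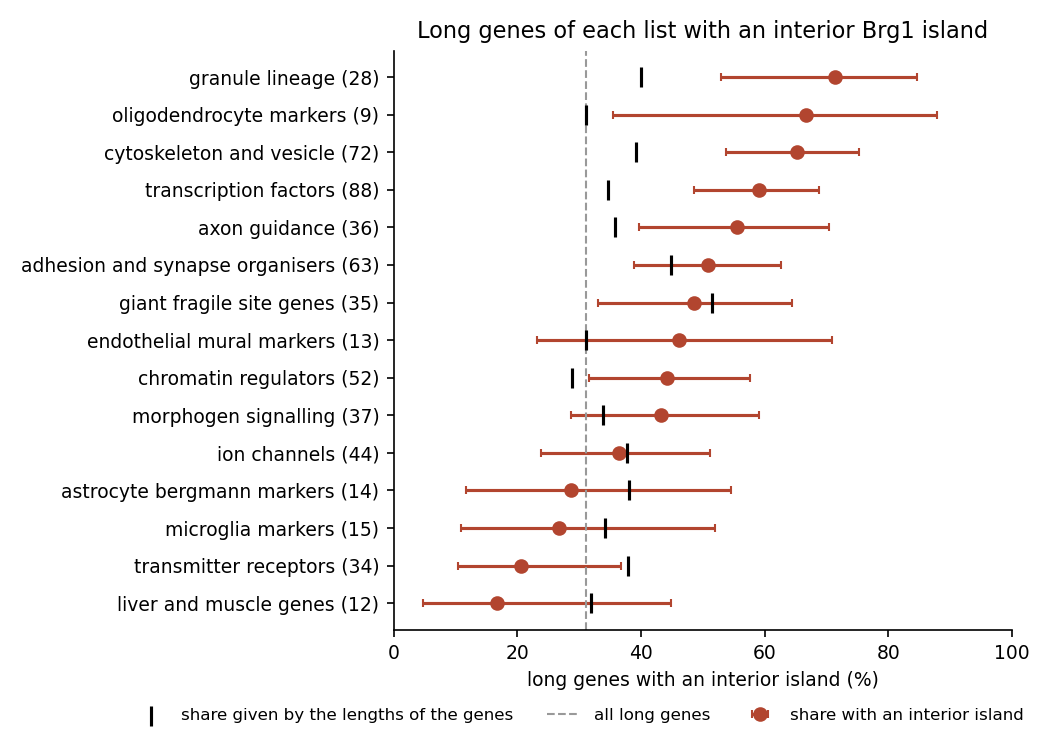
Red points give the percentage of long genes of each list with at least 1 interior island, with Wilson 95% intervals and the number of long genes in brackets; black ticks give the percentage from the lengths of the genes and the dashed line that of all long genes, 31.1%. Granule lineage genes, with 20 of 28, lie above their tick, and transmitter receptor genes, with 7 of 34, lie below their tick. The lists were chosen with earlier results of these data known.

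Along the host, interior islands were densest in the first part from the 5′ end. Strand was known, from the RefSeq table of starts, for the hosts of 1065 members (75.7%). Cut into 10 equal parts from the 5′ end, hosts held 15.4% of these members in the first part, at 3.66 islands per Mb (3.12 to 4.27). The other 9 parts held between 7.51% and 11.2% each, at 1.71 to 2.55 per Mb. The lowest was the fifth part with 1.71 (1.35 to 2.12), and the ninth and last parts had 2.55 (2.11 to 3.05) and 2.53 (2.08 to 3.04). Within 1 to 5 kb of the 5′ end the rate was 12 per Mb (9.62 to 14.8; 86 islands), and at the same distance from the 3′ end 2.49 (1.48 to 3.94; 18 islands).

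Listed transcription starts of the host lay under much of that excess. Only members of hosts with a listed start, 1065 of the 1407, could be found on one. Of all 1407 members, 84 lay within 500 bp of a start that RefSeq lists over 1 kb inside the gene. Another 34, with a median width of 3000 bp, reached from a midpoint inside the gene to a start at its end. Without both kinds the first of the 10 parts held 9.93% of the members, at 2.10 per Mb (1.70 to 2.57), while the fifth part held 1.49 (1.16 to 1.89) and the last 2.51 (2.06 to 3.01). The band at 1 to 5 kb from the 5′ end then held 3.36 per Mb (2.15 to 4.99). The sequence around the starts was kept in the interior for these rates, so leaving members out could only lower them. Of the 84, 29 lay on a start within 5 kb of the 5′ end of the annotated gene, and 46 on one over 20 kb inside. For 24 of the 84 it was the only start listed for the host.

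**Figure D5:**
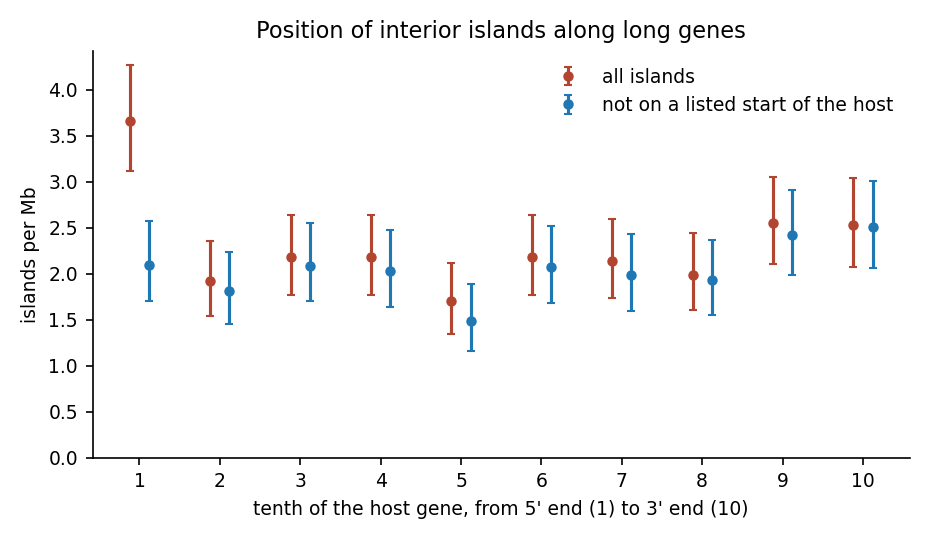
Points give islands per Mb in 10 equal parts of the host from the 5′ end to the 3′ end with exact Poisson 95% intervals, for all members with known strand (red) and for those on no listed start (blue). The first part falls from 3.66 to 2.10 when members on a listed start are left out of the same interior, and the other parts move little.

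Seen from the starts, 102 of the 1079 inner starts of long genes had a member (9.45%, 7.85 to 11.3), and 255 of 1622 starts at the gene ends had an island (15.7%, 14 to 17.6). The members on inner starts numbered 84, in 82 hosts, so several starts under 1 island were counted separately. The intervals treat starts as independent, which these are not. Members with their midpoint within 1 kb of an inner start numbered 68, a rate of 38.1 per Mb (29.6 to 48.3), against 2.10 per Mb (1.97 to 2.24) over 10 kb from any inner start. Most members were nevertheless not there: 939 of the 1065 lay over 10 kb from an inner start or in a host without one. The members on inner starts with the most reads were in Zfp536 (164), Zmynd8 (155), Zmiz1 (148) and Rfx3 (147), the last a regulator of ciliary genes. The midpoints of these 4 islands lay 2.96, 12.1, 1.34 and 3.36 kb from the 5′ end of the host. Members on inner starts had a median of 78 reads, and members on no listed start 68. The latter include the members of hosts for which no start was listed.

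Inner starts with a member were richer in CpG than those without, with overlapping quartiles. The median ratio of observed to expected CpG was 0.676 (interquartile range 0.388 to 0.865) in the 102 windows with a member and 0.400 (0.229 to 0.674) in the 977 without. The median GC content was 62.3% and 52.3%. The letters GGGCGG, searched on both strands, were found in 54.9% and 34.2% of these windows, and in 35.7% of all 32851 listed starts. The letters of E-boxes, which bHLH factors bind, were found about as often in both: CAGCTG in 17.6% and 20.6%, against 16.3% of all listed starts, and CAGATG in 15.7% and 16.6%, against 17.2%. The NFI site letters TTGGCA were found in 12.7% and 13.9%, against 14.1%. The CCAAT box was found in 30.4% of the windows with a member, 35.4% of those without and 37.4% of all listed starts. For the TATA box (the letters TATAAA on either strand) these shares were 9.80%, 12.3% and 13.6%. The AP-1 letters TGANTCA were found in 6.86%, 7.78% and 7.81%. A match is a description, not a site or a cause. Starts at the gene ends differed in the same direction in CpG, with a median ratio of 0.866 in those with an island and 0.725 in those without.

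Members were of ordinary size. Their median was 70 reads (interquartile range 57 to 87) over 2400 bp, against 68 reads (56 to 86) over 2200 bp in all other islands, and their median density was 6.17 against 6.30 reads per 200 bp. Of the 15 islands of unusual density in the list (over 3 times the median of islands of like width), none was a member. Islands of hosts with 5 or more had a median of 77 reads (63 to 102) and those of hosts with 1 a median of 66 (56 to 81), so that the quartiles overlapped. The members with the most reads after those of Nbea and Clybl were in Adk, adenosine kinase (225 reads over 5200 bp), Apba2, a neuronal adaptor (214), and Sdccag8, a centrosomal protein gene (214 and 198). The island of Adk lay 200 kb from the 5′ end of the host, with no other island within 114 kb, and was 1.60 times the median of islands of like width.

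Members lay near other islands in part. Another island was found within 20 kb of 31.6% (29.2 to 34.0) of members, of 37.4% (34.5 to 40.4) of islands inside shorter genes and of 29.5% (27.2 to 32.0) of islands over 10 kb from genes. The 651 gaps between neighbouring members of 1 host had a median of 37.2 kb (interquartile range 11.6 to 91.6), and 35.9% were 20 kb or less. An island at a gene end was somewhat more frequent in hosts: leaving the members themselves out, one lay within 1 kb of either end in 123 of 756 hosts (16.3%, 13.8 to 19.1) and in 166 of 1671 long genes without a member (9.93%, 8.59 to 11.5). Among genes of known strand nearly all of these were at the 5′ end, in 81 of 575 hosts (14.1%, 11.5 to 17.2) and 127 of 1289 others (9.85%, 8.34 to 11.6), whose intervals overlap, against 4 and 7 at the 3′ end.

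By chromosome, autosomal long genes held 2.46 members per Mb (2.33 to 2.59), from 1.64 on chromosome 6 to 3.45 on chromosome 4. On chromosome X 4 of 114 long genes had one, at 0.138 per Mb (0.0375 to 0.352). These were Stag2, a cohesin subunit gene, with 113 reads, Frmpd3 with 75, Bcor, a corepressor, with 63 and Col4a6 with 51. Only 16 members overlapped another protein-coding gene under 100 kb, and 50 had their midpoint within 10 kb of an end of another protein-coding gene.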

How the data were processed

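The deposited list gives 5727 islands from 1 ChIP library, each with a position and a whole number. These deposited numbers were taken as read counts per island, from their values, and are not scaled for depth; the library's total depth is unknown. Bowtie 0.12.7, SICER 1.1 (an island caller) and Picard 1.127 are listed, per the submitters' processing notes, as are both mm10 and mm9, with no role. How SICER was set and whether the input entered it is not given in the sources used here. Widths were multiples of 200 bp in 5724 islands. Coordinates are 1-based on mm10; whether islands were moved from mm9 was not settled.

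Genes (21631 protein-coding, 12697 lncRNA) came from RefSeq on GRCm38.p6, and strand and transcription starts from the RefSeq table of promoters, which matched 1864 of the 2427 long genes. The available interior was counted in bins of 10 bp. Intervals are exact Poisson or Wilson at 95%; 3 islands are the limit given beside a count of 0. The 15 lists matched 796 of 798 symbols. Members, lists and the rules for named genes (the most islands, most islands per length, most reads, widest, the longest genes, up to 5 per list) were chosen with earlier results of these data known; genes named for a start, a printed sequence, a microRNA or chromosome X, and Gli3, Dock2 and Notch2, were named after their values were seen. Schip1 and the genes named as of another kind than their list were also named after their values were seen. The rule for members was tested on simulated data. Planned motif counts in islands were not run, having no genome. Analyses used Python 3.11.15, pandas 2.3.3 and scipy 1.17.1. Some genes that the naming rule picks are not reported here.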

Additional observations from a re-analysis of the deposited data

How the results depend on the processing

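No paired analysis was possible because there was 1 ChIP library. Of 57 alternative values, 34 stayed close to the value reported (counts within 1.5 times, other values within its counting interval or quartiles) and 23 moved. With a minimum host length of 200 kb there were 875 members in 411 hosts, 2.12 islands per Mb, a ratio of 0.756 to the rate in shorter genes (0.844 as reported) and 41.5% of genes with a member; with 50 kb that share was 22.0%. Over 5 kb from gene ends the rate was 2.08 per Mb, the ratio 0.938 and the share 27.3%. Without islands below the median of 68 reads there were 742 members in 465 hosts, 1.24 per Mb and 19.2% of genes. Counting any overlap gave 2.73 per Mb, a ratio of 0.562 and 36.5%. The share of members in the first of 10 parts of the host was 8.55% with 5 kb around ends left out and 21.2% in hosts with 1 island; it was 9.93% without members on a listed start, an alternative chosen after seeing the data. Another island lay within 10 kb of 20.5% and within 50 kb of 49.4% of members. The share of members on an inner start, 5.97%, was 4.14% over 5 kb from gene ends and 4.83% by midpoint within 1 kb, both chosen after seeing the data. With 1 library and unknown depth, weak islands cannot be told from absent ones.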

Other observations

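Annotated microRNA genes overlapped 4 members. Mir5129 in Zeb2 (82 reads) and Mir7655 in Mllt10 (93 reads) had both mature sequences inside the island. Mir7687 in Gse1 (63 reads) and the gene of miR-9768 in Mcf2l (48 reads) lay at the edge of the island. The edge cut through miR-7687-5p, while miR-9768-5p lay wholly outside the island and miR-9768-3p inside it. The 4 islands of Zeb2, a zinc-finger homeobox repressor, had 54, 82, 103 and 148 reads in 134 kb, and the strongest reached the 5′ end of the gene.

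The member of highest read density was in Dock2, a guanine nucleotide exchange factor gene of blood cells, with 66 reads over 600 bp (22.0 reads per 200 bp, 2 times the median of islands of like width). Genes on no list held 856 of the 1407 members. The 7 islands of Clybl fell into 3 islands between 42.8 and 61.4 kb from the 5′ end, with 59, 165 and 96 reads, and 4 between 178 and 213 kb, with 101, 53, 174 and 328 reads; the second group lay 74.9 to 110 kb from Zic5, a zinc-finger gene of granule neuron progenitors.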
